A study of Mus musculus with 12 samples.

Results

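Loss of Samhd1 was present in 3 of the 4 genotypes of this study of mouse peritoneal macrophages: alone (Samhd1 KO), together with loss of Cardif (Samhd1 Cardif dKO), and together with loss of Sting (Samhd1 Sting dKO). The changes described here are those that all 3 Samhd1-deficient genotypes had in common against WT. All 12 libraries entered the comparison, 3 per genotype, with 9 Samhd1-deficient libraries on one side and 3 WT libraries on the other. Each deficient genotype carried the same weight. Of 15721 genes in the deposited table, 13231 had at least 10 normalized reads in at least 3 of the 12 libraries and were tested, and 2490 were not. The gene just inside this limit was Cr2, at 10.03 normalized reads in the library ranked 3 from the top, and the one just outside was Tmem22, with 9.895. A gene is called shared when the mean log2 change over the 3 genotypes had a limma adjusted p below 0.05 and the change against WT had the same sign in each genotype. The 3 genotypes were measured against the same WT libraries, so a common sign is part of the definition and no separate support.

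SAMHD1 is a dNTP triphosphohydrolase that keeps deoxynucleotide pools low and limits retroviral replication in myeloid cells, and loss of its function is linked to spontaneous interferon responses. MAVS, also called Cardif, acts downstream of RIG-I and MDA5, which sense RNA, and STING acts downstream of cGAS, which senses DNA. A change present in Samhd1 KO and in both double knockouts is one seen when MAVS is lost and also when STING is lost. The groups of genes that follow belong in part to stress programmes: the unfolded protein response, which raises chaperones of the endoplasmic reticulum (ER) when protein folding there is loaded, and the heat shock response, which raises chaperones of the cytosol.

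The cells were sorted by FACS from the peritoneal cavity of C57BL/6 mice, and their mRNA was sequenced by a strand-specific protocol after poly-dT enrichment. The labels name the genotypes WT, SAMHD1_KO, SAMHD1_Cardif_dKO and SAMHD1_Sting_dKO and give neither the alleles nor whether mice were pooled. The labelled age, with no unit, was 16 in every WT library and 16 to 24 in the deficient ones, and all mice were female except that of Samhd1 Cardif dKO replicate 1. No date of sorting or library preparation is given, so a preparation specific to the WT libraries and the genotype cannot be told apart. Depth was 18884021 to 32204657 recovered reads per library. The large peritoneal macrophage list had a summed level of 2420890 to 2592960 normalized reads in WT and 2263550 to 2677470 in the deficient libraries, and 2 of its 34 tested genes were shared higher and 0 shared lower. The summed level of 11 sorted macrophage markers was 1281150 to 1399710 normalized reads in WT and lower in Samhd1 KO, at 958762 to 1143030. It was at 899960 to 1284050 in the Cardif dKO, which overlaps WT, and 1197200 to 1268450 in the Sting dKO. Of the 11, 1 was shared lower and 0 shared higher. Their median log2 change was 0.03 in Samhd1 KO, 0.03 in the Cardif dKO and -0.17 in the Sting dKO. In Samhd1 KO 0 of them were called lower, so the sums do not show a fall of the list as a whole. On the marker lists of lymphocytes (24 B cell genes, 3 of T and NK cells), mast cells (10), neutrophils (7) and red cells (3), 0 tested genes were shared in either direction. With 2.49% of all tested genes shared higher and 2.28% shared lower, counts of 0 on such short lists stand near the background. They do not show equal cell content. Called separately, 9 of the 24 B cell genes were higher in the Sting dKO (3.57% of all tested genes). In Samhd1 KO 3 of the 10 mast cell genes were lower (1.62%). Labelled age or sex differs between the 3 libraries of each deficient group, so these came from separate mice. The 3 WT libraries carry the same age and sex, and nothing in the labels says whether they came from separate mice, so the spread between them may be technical.

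The pooled contrast had 329 shared higher genes (2.49% of those tested) and 302 shared lower genes (2.28%). These shares are the background for every count of shared genes on a list. A further 9 genes passed the pooled test without the same sign in each genotype. Most shared changes were small: 199 of the higher and 188 of the lower genes changed by less than 1.5-fold, and 50 and 35 by more than 2-fold. For 251 of the shared higher genes all 9 deficient libraries lay above all 3 WT libraries, and for 247 of the lower genes all 9 lay below, where 442 (3.34%) and 463 (3.5%) of all tested genes did so. Called separately, Samhd1 KO had 358 higher (2.71%) and 214 lower genes (1.62%), Samhd1 Cardif dKO 46 (0.348%) and 94 (0.71%), and Samhd1 Sting dKO 472 (3.57%) and 388 (2.93%). In each of the 3 genotypes 34 genes were called higher (0.257%) and 57 lower (0.431%), all of them shared. Next to the threshold, Mapk14 was inside at an adjusted p of 0.04997 (log2 -0.20) and Tef outside at 0.05004 (log2 0.76).

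The number of shared genes fell most when 1 of the 3 WT libraries was left out. With 3 WT libraries against 9 deficient ones, the pooled contrast loses more precision without a WT library, whatever that library holds. A call can therefore be lost with its log2 change unmoved, and what else the drop reflects was not tested. Without WT replicate 1 the counts were 118 higher and 136 lower, without replicate 2 they were 108 and 141, and without replicate 3 they were 99 and 107. Without any one of the 9 deficient libraries they stayed between 232 and 330 higher and between 227 and 330 lower. In the full data and in each of the 12 fits that left out 1 library, 57 genes were shared higher and 89 shared lower.

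**Figure D1:**
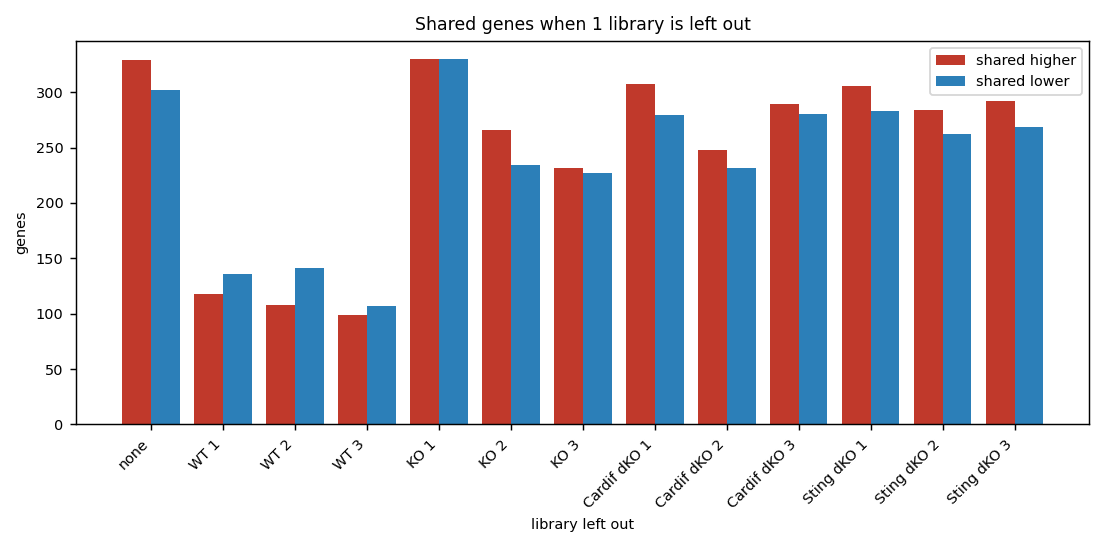
Number of shared higher (red) and shared lower (blue) genes on the vertical axis, with all 12 libraries ("none") and with the library named on the horizontal axis left out. The counts drop from 329 and 302 to between 99 and 141 when a WT library is left out and stay at 227 or more when a deficient library is.

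The targeted gene was read first. Samhd1 (ENSMUSG00000027639) stood at 11525, 10113 and 10644 normalized reads in WT, 6188, 7816 and 5555 in Samhd1 KO, 2952, 3581 and 4307 in the Cardif dKO and 3196, 3291 and 4563 in the Sting dKO. All 9 deficient libraries were below all WT libraries, and transcript was still read in each of them. The pooled change was log2 -1.30, SE 0.14, adjusted p = 0.000914, called in 12 of 12 fits. Its size differed among the deficient genotypes (limma F test, adjusted p = 0.0197): the log2 change was -0.74, -1.59 and -1.56 in the single knockout, the Cardif dKO and the Sting dKO, an order kept for all triplets of changes that follow. Mavs (ENSMUSG00000037523) was not shared. It had 850, 816 and 911 normalized reads in WT, 966, 840 and 925 in Samhd1 KO, 509, 525 and 520 in the Cardif dKO and 1008, 768 and 955 in the Sting dKO, and only the libraries labelled Cardif dKO were low. Tmem173 (ENSMUSG00000024349), which encodes STING, had 537, 481 and 548 normalized reads in WT, 696, 768 and 741 in Samhd1 KO, 577, 611 and 653 in the Cardif dKO and 577, 538 and 539 in the Sting dKO. It counted as shared higher by a narrow margin (log2 0.27, SE 0.07, adjusted p = 0.046, 2 of 12 fits), and the WT and Sting dKO libraries overlapped, so its gene-level reads do not check the Sting label.

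Chaperones and quality control factors of the ER were lower in all 3 Samhd1-deficient genotypes. On the list of ER stress and amino acid response genes, 16 of 29 tested genes were shared lower and 0 shared higher, and the median log2 change was -0.38 beside 0.01 over all tested genes. By genotype the median was -0.48 in the single knockout, -0.38 in the Cardif dKO and -0.47 in the Sting dKO. Called separately, 14 of the 29 were lower in the single knockout, 7 in the Cardif dKO and 15 in the Sting dKO. Over all tested genes the shares called lower were 1.62%, 0.71% and 2.93%. The summed level of the list was 155925 to 192456 normalized reads in WT and 95839.3 to 131118 in the deficient libraries, which do not overlap. The list was made with earlier results of these data known, so its direction is no independent evidence. Without WT replicate 3, which was the highest library for most of these genes, 10 of the 29 were shared lower, and 10 were so in the full data and in every fit without 1 library.

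Herpud1 (ENSMUSG00000031770), a membrane protein of the machinery that removes misfolded ER proteins, had 3794, 3922 and 5659 normalized reads in WT, 1999, 1831 and 1698 in Samhd1 KO, 1877, 1920 and 1791 in the Cardif dKO and 1928, 1788 and 1553 in the Sting dKO. The lowest WT library was well above the highest deficient one, and the 9 deficient libraries were close to each other. Its pooled change was log2 -1.27, SE 0.11, adjusted p = 0.000227, with -1.25, -1.23 and -1.32 in the 3 genotypes in the order above, and it was called in 12 of 12 fits. Hspa5 (ENSMUSG00000026864), which encodes BiP, the central HSP70-type chaperone of the ER, had 37234, 38972 and 50592 normalized reads in WT, 20406, 20848 and 18917 in Samhd1 KO, 22609, 27894 and 21110 in the Cardif dKO and 17673, 19679 and 15657 in the Sting dKO. BiP transcript was thus lowest in Samhd1 Sting dKO and WT replicate 3 was the highest library (log2 -1.04, SE 0.11, adjusted p = 0.000914). Dnajb9 (ENSMUSG00000014905), a co-chaperone of BiP, had 2800, 2825 and 4084 normalized reads in WT, 1561, 1279 and 1141 in Samhd1 KO, 1172, 1743 and 1570 in the Cardif dKO and 1293, 1560 and 1393 in the Sting dKO. None of the 9 deficient libraries reached the lowest WT library, a pooled change of log2 -1.19, SE 0.14, adjusted p = 0.00138.

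Other partners of BiP moved alike. Hyou1, an ER chaperone that also acts as a nucleotide exchange factor for BiP, was at 6265 to 9793 in WT and 2737 to 4848 in the deficient libraries (log2 -1.11, SE 0.15, adjusted p = 0.00231). Manf, a small ER-resident and secreted protein, was at 3611 to 5323 and 1473 to 2738 (log2 -1.17, SE 0.16, adjusted p = 0.00256). Syvn1, the ubiquitin ligase HRD1 of ER-associated degradation, was at 2470.7 to 3796.9 and 1269 to 1794 (log2 -0.92, SE 0.12, adjusted p = 0.00179), and its partner Sel1l changed by log2 -0.38. All of these groups were separate. Smaller falls were seen for the protein disulfide isomerases Pdia4 (-0.63) and Pdia6 (-0.36), the HSP90 of the ER, Hsp90b1 (-0.36), and the J-domain proteins Dnajc3 (-0.51) and Dnajb11 (-0.48). Creld2 (-0.99), the mannosidase-like Edem1 (-0.52), and the transcription factor genes Xbp1 (-0.52) and Ddit3 (-0.81) complete the 16. Creb3l2, which encodes an ER-anchored transcription factor of secretory pathway genes, was not on the list and was among the 20 largest falls (log2 -1.23, SE 0.17, adjusted p = 0.00218). Pdia6 was called in 7 of the 12 fits without 1 library and Ddit3 in 4. Sel1l, Dnajc3, Dnajb11 and Xbp1 were lost without WT replicate 3 alone (log2 -0.29, -0.37, -0.41 and -0.46), while Creb3l2, Creld2, Dnajb9, Manf, Hyou1, Hspa5, Syvn1, Pdia4, Hsp90b1 and Edem1 were called in all 12.

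The 13 tested genes of the list that were not shared were mostly those of the amino acid response, with the ER co-chaperone Sdf2l1 (-0.60, adjusted p = 0.0512) beside them. Atf4, its main transcription factor, was at log2 -0.21 (adjusted p = 0.147), Asns, asparagine synthetase, at 1.04 (adjusted p = 0.192), Trib3 at -0.27 (adjusted p = 0.688) and the phosphatase subunit gene Ppp1r15a at -0.12 (adjusted p = 0.657). Asns had 1.89 to 10.4 normalized reads in WT, so its fold change has little depth behind it.

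The promoters of 4 of the lower ER genes are printed here because they hold the same composite motif, the ER stress response element. It was searched as CCAAT followed after 9 bases by CCACG, on both strands, a motif added after the falls had been seen. The windows came from RefSeq (GRCm38.p6) and ran from 250 bases before to 50 bases after each gene's start. The 150 bases before the start follow, in the direction of transcription, with the motif in capitals.
Hspa5 (chr2:34771940-34772089, plus strand): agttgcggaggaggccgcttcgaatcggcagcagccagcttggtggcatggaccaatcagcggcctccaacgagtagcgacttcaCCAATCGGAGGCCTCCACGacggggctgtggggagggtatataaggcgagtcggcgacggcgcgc
Syvn1 (chr19:6046426-6046575, plus strand): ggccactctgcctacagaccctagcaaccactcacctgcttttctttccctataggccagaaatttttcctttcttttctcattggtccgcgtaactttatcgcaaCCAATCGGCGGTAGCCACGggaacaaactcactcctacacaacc
Pdia6 (chr12:17266439-17266588, plus strand): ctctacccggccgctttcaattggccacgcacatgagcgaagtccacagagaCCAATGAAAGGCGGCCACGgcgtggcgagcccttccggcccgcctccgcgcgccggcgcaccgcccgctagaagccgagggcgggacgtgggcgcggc
Dnajc3 (chr14:118937782-118937931, plus strand): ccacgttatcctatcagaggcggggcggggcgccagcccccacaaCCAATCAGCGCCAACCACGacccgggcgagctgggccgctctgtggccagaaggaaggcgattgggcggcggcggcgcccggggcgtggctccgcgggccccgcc
The motif began 65 bases before the start of Hspa5, 44 before that of Syvn1, 98 before that of Pdia6 and 105 before that of Dnajc3. Of the 16 shared lower ER genes, 14 had a window and 6 of these held the motif, Creld2 and Hsp90b1 being the other two. Of the genes of the list that were not shared, mostly those of the amino acid response, 13 had a window and 0 held it. Among all tested genes 9750 had a window, and 16 of these (0.164%) held the motif. Of the 16, 9 were shared lower, the remaining 3 being Derl3, Alg12 and Ero1lb, and 0 were shared higher. Holders that were not shared included the ER chaperone genes Canx (log2 -0.18, adjusted p = 0.0821) and Calr (log2 -0.28, adjusted p = 0.118). Both had been placed on the MHC class I list, so the count of 0 on the ER list depends on how the lists were drawn. Windows were matched for 73.7% of all tested and 75.2% of shared lower genes, below the 80% set for comparing these sets. That comparison is void for this motif too, and its counts describe the matched genes alone. A match describes the letters of the window and is not a measured binding site.

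**Figure D2:**
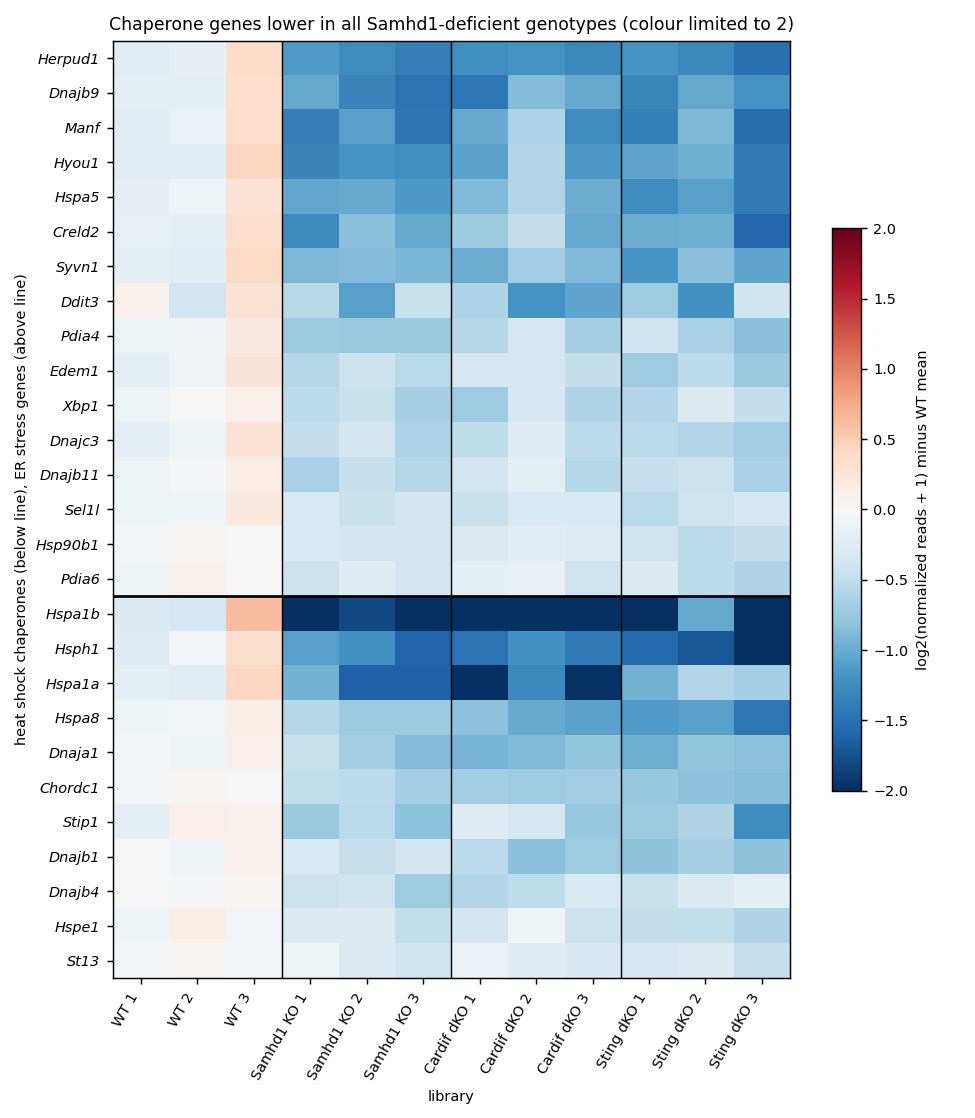
Heat map of the 16 ER stress genes (above the line) and 11 heat shock chaperones (below the line) that were shared lower, in each of the 12 libraries, as log2(normalized reads + 1) minus the mean of WT. Colours are limited to 2 in either direction. All 243 values of the 9 deficient libraries are below 0, from -2.5 (Hsph1) to -0.0926 (Hspe1), and WT replicate 3 is the highest WT library for most ER genes. The genes were drawn because they were shared lower, so their common direction follows from the choice.

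Other genes of the secretory pathway were read next, from 3 families chosen after the chaperones had been seen, so that they are described by counts alone. Of 35 tested genes for entry of proteins into the ER and N-glycosylation, 17 were shared lower and 0 shared higher. The change was negative in all 3 genotypes for 31 of them, where 3534 of 13231 tested genes had this pattern, and the median log2 change was -0.29. They included the translocon subunit Sec61a1 (-0.58), the translocon-associated Ssr1 (-0.40), Ssr2 (-0.57), Ssr3 (-0.43) and Tram1 (-0.52), the signal peptidase subunits Spcs2 (-0.56), Spcs3 (-0.41) and Sec11c (-0.30), and the oligosaccharyltransferase subunits Stt3a (-0.46), Stt3b (-0.29), Ostc (-0.53) and Rpn1 (-0.37). Of 39 genes for transport between ER and Golgi, 9 were shared lower and 0 higher, with a median of -0.16. The largest of these were the coat subunit Sec24d (-0.75) and the SNARE Bet1 (-0.74). Of 24 genes for degradation of ER proteins, 9 were shared lower and 0 higher, with a median of -0.18. Of these 9, 4 stand on the ER stress list too, and the others included Derl2 (-0.44), Edem2 (-0.42) and Selk (-0.47). In the entry and transport families no shared change went beyond that of Sec24d. The degradation family reached further, with Derl3 at -0.97 (3 of 12 fits) and Herpud1 and Syvn1 as given above. In the full data and in each of the 12 fits, 6 of the 17, 3 of the 9 and 5 of the 9 were shared lower.

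Heat shock chaperones fell as well. Of 25 tested genes, 11 were shared lower and 0 shared higher, and the median log2 change was -0.39, with -0.37 in the single knockout, -0.30 in the Cardif dKO and -0.46 in the Sting dKO. Called separately, 9 of the 25 were lower in the single knockout, 7 in the Cardif dKO and 10 in the Sting dKO, beside 1.62%, 0.71% and 2.93% of all tested genes. The summed level was 84190.9 to 94699.9 normalized reads in WT and 57256.2 to 81144.1 in the deficient libraries. Without WT replicate 2 the number shared lower was 7, without WT replicate 3 it was 6, and 6 were shared lower in the full data and in every fit without 1 library. Hspa1a and Hspa1b encode the inducible HSP70 and are near-identical copies, so reads may be split between them by the counting. Their sum was 312.5, 302.6 and 529.9 normalized reads in WT and ranged from 78.77 to 209.2 in the deficient libraries. Each was lower alone, Hspa1b by 4.09-fold (log2 -2.03, SE 0.27, adjusted p = 0.00179, 12 of 12 fits) and Hspa1a by 2.47-fold (log2 -1.30, SE 0.22, adjusted p = 0.00615, lost without WT replicate 3 at log2 -1.10).

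Hsph1 (ENSMUSG00000029657), which encodes the large chaperone HSP105, had 1846, 2129 and 2758 normalized reads in WT, 1039, 955 and 735 in Samhd1 KO, 793, 951 and 826 in the Cardif dKO and 753, 678 and 391 in the Sting dKO. Its 9 deficient libraries were all below the lowest WT library (log2 -1.53, SE 0.18, adjusted p = 0.00138). Hspa8 (ENSMUSG00000015656), the constitutive cytosolic HSP70, had 13893, 14257 and 16194 normalized reads in WT, 9944, 8946 and 8891 in Samhd1 KO, 8365, 7297 and 7042 in the Cardif dKO and 6732, 6950 and 5412 in the Sting dKO. It was lower in every genotype (log2 -0.95, SE 0.09, adjusted p = 0.000298), with log2 changes of -0.67, -0.97 and -1.22 that differed among the genotypes (F test, adjusted p = 0.0374). Chordc1, a co-chaperone of HSP90, had the smallest adjusted p of the named genes: 1336 to 1410 in WT and 758 to 973 in the deficient libraries (log2 -0.69, SE 0.06, adjusted p = 0.000168). The J-domain co-chaperones Dnaja1 (log2 -0.80, SE 0.08, adjusted p = 0.000914), Dnajb1 (-0.61) and Dnajb4 (-0.43), the HSP70-HSP90 adaptors Stip1 (-0.67) and St13 (-0.28), and the mitochondrial co-chaperonin Hspe1 (-0.39) were the others. Hsf1, the transcription factor of the response, was at log2 -0.07 (adjusted p = 0.662), Hsp90aa1 at -0.54 (adjusted p = 0.0982) and the mitochondrial chaperonin Hspd1 at -0.36 (adjusted p = 0.0891). Stip1 was lost without WT replicate 2 or 3 (log2 -0.62 in both), and St13, Hspe1 and Dnajb4 were called in 3, 8 and 9 of 12 fits. Hsph1, Hspa8, Chordc1, Dnaja1 and Dnajb1 were called in all 12.

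The promoters of 3 of the lower heat shock genes are shown as above, with the core of a heat shock element (GAANNTTC) in capitals.
Hspa1b (chr17:34959239-34959388, minus strand): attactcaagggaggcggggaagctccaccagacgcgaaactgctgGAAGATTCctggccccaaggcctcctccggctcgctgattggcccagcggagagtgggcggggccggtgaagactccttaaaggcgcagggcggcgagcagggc
Hspe1 (chr1:55087998-55088147, plus strand): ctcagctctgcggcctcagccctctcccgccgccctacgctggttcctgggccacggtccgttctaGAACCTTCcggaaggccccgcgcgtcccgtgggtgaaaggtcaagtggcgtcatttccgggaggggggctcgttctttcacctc
Dnaja1 (chr4:40722318-40722467, plus strand): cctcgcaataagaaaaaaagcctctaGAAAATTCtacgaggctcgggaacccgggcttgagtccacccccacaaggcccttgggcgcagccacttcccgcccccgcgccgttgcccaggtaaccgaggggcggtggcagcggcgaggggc
Of 11 shared lower heat shock genes, 9 had a window and 6 held the core, the others being Hspa1a, Hsph1 and Chordc1. Of the listed genes that were not shared, 11 had a window and 4 held it: Bag3, Fkbp4, Hspb1 and Dnajb6. Among all 9750 windows 570 held it (5.85%), and among the 14 windows of lower ER genes 0 did. The 9750 windows cover 73.7% of the tested genes, below the 80% set, so their share describes the matched genes alone.

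**Figure D3:**
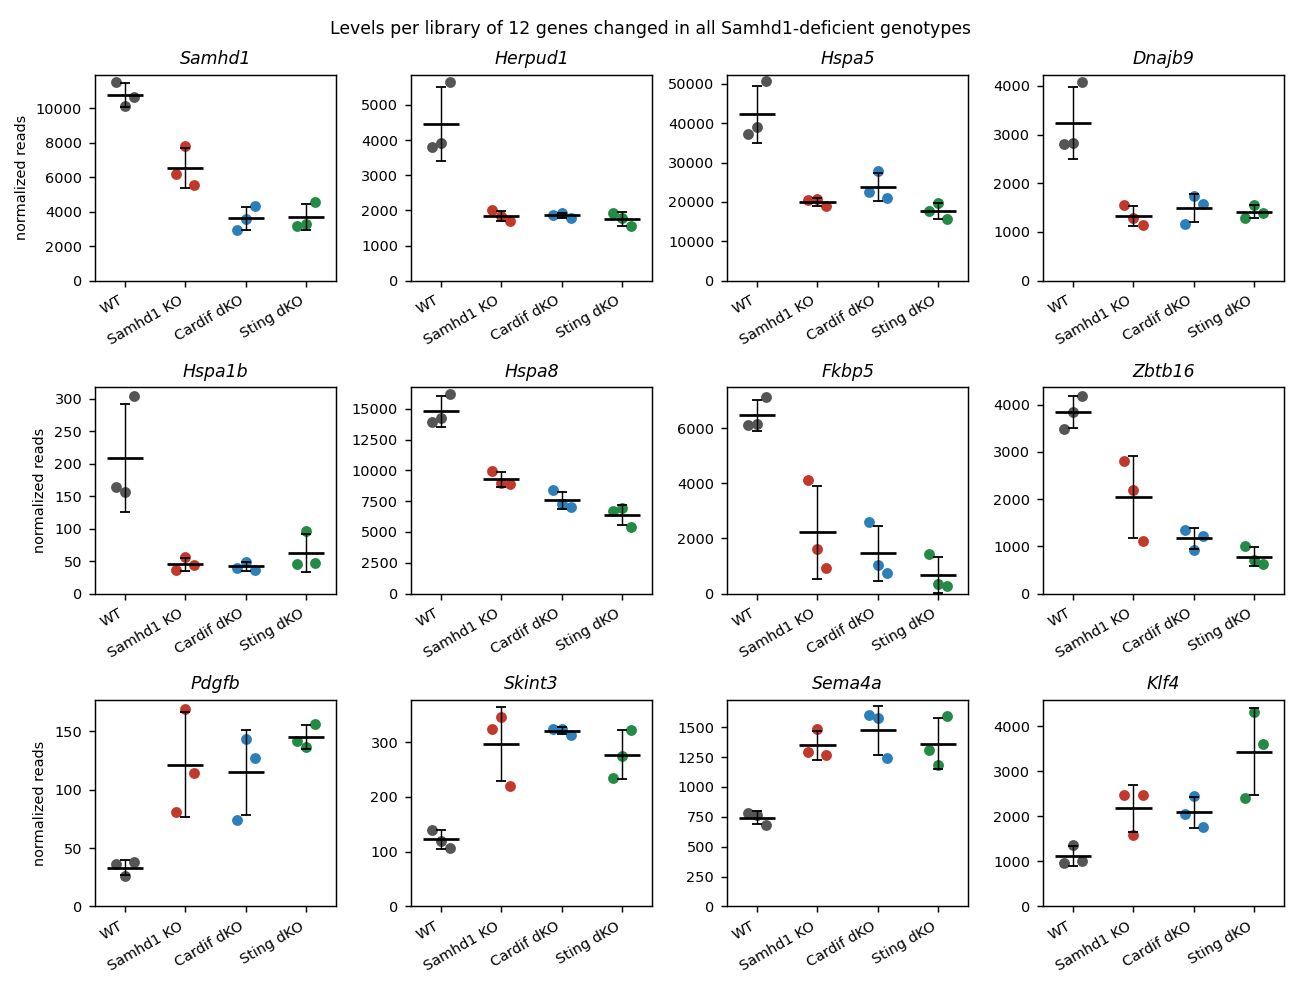
Normalized reads (vertical axis, from 0) of 12 shared genes in each library, grouped by genotype on the horizontal axis, with points for libraries and bars for mean and SD (n = 3). Samhd1, 3 ER genes, 2 heat shock genes, Fkbp5 and Zbtb16 are lower in all 9 deficient libraries than in WT, and Pdgfb, Skint3, Sema4a and Klf4 are higher in all 9.

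The largest fall among separate genes with a mean of at least 50 normalized reads was in a gene that glucocorticoids induce. Fkbp5 (ENSMUSG00000024222), a co-chaperone of steroid receptors, had 6106, 6141 and 7119 normalized reads in WT, 4112, 1623 and 911 in Samhd1 KO, 2589, 1038 and 730 in the Cardif dKO and 1425, 343 and 258 in the Sting dKO. The WT libraries were close together and the deficient ones spread widely, and all 9 were below WT (log2 -2.62, SE 0.54, adjusted p = 0.018). Leaving out WT replicate 1, 2 or 3 lost the call at log2 -2.66, -2.65 and -2.55. Zbtb16 (ENSMUSG00000066687), the zinc finger repressor PLZF, had 3492, 3844 and 4181 normalized reads in WT, 2814, 2196 and 1118 in Samhd1 KO, 1351, 931 and 1214 in the Cardif dKO and 1000, 711 and 615 in the Sting dKO. Its change was negative in all 3 genotypes, at -1.01, -1.73 and -2.33 (pooled log2 -1.69, SE 0.23, adjusted p = 0.00231), and the pooled contrast called it in 12 of 12 fits. Tsc22d3, which encodes the glucocorticoid-induced leucine zipper, had 15260, 11988 and 7436 in WT and 2808 to 10779 in the deficient libraries, which overlap (log2 -1.08, SE 0.24, adjusted p = 0.0271, lost without WT replicate 1 at -0.85 and without WT replicate 2 at -1.03). The clearance receptor Mertk was called in 3 of 12 fits (log2 -0.47, SE 0.12, adjusted p = 0.0466). Of 19 tested glucocorticoid-responsive genes these 4 were shared lower and 0 higher, with a median of -0.29. Called separately, 0 of the 19 were lower in Samhd1 KO, 3 in the Cardif dKO and 3 in the Sting dKO, so no gene of the list was called in the single knockout alone. Those shares over all tested genes were 1.62%, 0.71% and 2.93%, so 0 of 19 in Samhd1 KO stands near the background. Per1 at -1.02 (adjusted p = 0.0596), Klf9 at -0.67 (adjusted p = 0.079), Dusp1 at -0.61 (adjusted p = 0.201) and Sgk1 at -0.04 (adjusted p = 0.938) did not pass. The number shared lower on this list was 1 without WT replicate 1, 1 without WT replicate 2, 2 without WT replicate 3 and 7 without Samhd1 KO replicate 1.

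Rgs1, a regulator of G protein signalling, was at 205 to 531 in WT and 69.2 to 165 in the deficient libraries (log2 -1.72, SE 0.27, adjusted p = 0.0051). Zfp9, a zinc finger protein, was at 159 to 270 and 47.0 to 72.2 (log2 -1.69, SE 0.19, adjusted p = 0.00121), and Slc10a6, a carrier of sulfated steroids, at 388 to 511 and 107 to 262 (log2 -1.58, SE 0.26, adjusted p = 0.00642). Jdp2, a repressor that pairs with Jun proteins (log2 -1.31, SE 0.16, adjusted p = 0.00143), Ttc39c (log2 -1.14, SE 0.17, adjusted p = 0.00391) and the ubiquitin ligase Cblb, a brake on receptor signalling (log2 -1.04, SE 0.15, adjusted p = 0.00278), were called in all 12 fits, as were Rgs1, Zfp9, Slc10a6, Birc3 and Cdkn2a. Fbxl22 (log2 -1.27, SE 0.25, adjusted p = 0.0139) was lost without WT replicate 1 (log2 -1.12) or 2 (-1.25). Birc3, the NF-kB-induced ubiquitin ligase cIAP2, was at 2121 to 2655 in WT and 1196 to 1954 in the deficient libraries (log2 -0.72, SE 0.10, adjusted p = 0.00256). Cdkn2a, the cell cycle inhibitor locus, had 351, 402 and 354 normalized reads in WT, 108, 146 and 128 in Samhd1 KO, 346, 228 and 189 in the Cardif dKO and 151, 146 and 100 in the Sting dKO. The drop was shallower in the Cardif dKO libraries, with log2 changes of -1.54, -0.58 and -1.49 and a difference among genotypes at an adjusted p of 0.047 (F test). Among the 31 tested p53 targets, Phlda3 (-1.08), Btg2 (-0.25) and Fas (-0.42) were shared lower and 0 higher, beside 2.28% and 2.49% of all tested genes. Each of the 3 was called in 4 of 12 fits.

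The shared rises were spread over many functions, and no list had more than 5 of its members among them. Among secreted factors and receptors, Pdgfb (ENSMUSG00000000489), a subunit of platelet-derived growth factor, had 36.0, 25.8 and 37.8 normalized reads in WT, 80.8, 169 and 114 in Samhd1 KO, 73.7, 143 and 127 in the Cardif dKO and 142, 136 and 156 in the Sting dKO. Its 3 WT libraries were the lowest of the 12 (log2 1.88, SE 0.24, adjusted p = 0.00149, 3.67-fold, 12 of 12 fits). The adenosine receptor gene Adora2a was at 34.1 to 58.2 in WT and 81.0 to 179 in the deficient libraries (log2 1.29, SE 0.23, adjusted p = 0.00862, lost without WT replicate 3 at log2 1.09). Cd40, the costimulatory receptor, was at 637 to 723 and 980 to 1556 (log2 0.78, SE 0.09, adjusted p = 0.00138), and Sema4a, a membrane semaphorin, at 679 to 783 and 1184 to 1603 (log2 0.90, SE 0.10, adjusted p = 0.00125). Both were called in all 12 fits. Skint3, of the immunoglobulin superfamily, was at 107 to 140 and 220 to 346 (log2 1.27, SE 0.14, adjusted p = 0.00124).

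Coro1a (ENSMUSG00000030707), an actin-binding coronin of leukocytes, had 549, 594 and 543 normalized reads in WT, 717, 2702 and 2292 in Samhd1 KO, 3055, 3559 and 1949 in the Cardif dKO and 2311, 937 and 1499 in the Sting dKO. The WT libraries were nearly equal and the deficient ones ranged over several fold (log2 1.75, SE 0.36, adjusted p = 0.0184), and the call was lost without WT replicate 1, 2 or 3 (log2 1.73, 1.79 and 1.72). Cass4, a docking protein of focal adhesions, was at 59.7 to 85.0 in WT and 124 to 270 in the deficient libraries (log2 1.34, SE 0.21, adjusted p = 0.0051, 12 of 12 fits). Pstpip1, a cytoskeletal adaptor that binds pyrin, was at 156 to 224 and 320 to 719 (log2 1.29, SE 0.22, adjusted p = 0.0064, lost without WT replicate 3 at 1.16). Mid1, a microtubule-associated ubiquitin ligase, was at 87.5 to 140 and 173 to 479 (log2 1.61, SE 0.30, adjusted p = 0.0121, lost without WT replicate 2 at 1.55 and without WT replicate 3 at 1.46). The adaptor Sh2b2 (log2 1.40, SE 0.28, adjusted p = 0.0179) was lost without WT replicate 1, 2 or 3 (1.29, 1.38 and 1.51).

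Transcription factor genes rose as follows. Klf4 (ENSMUSG00000003032), a zinc finger factor of monocytes and macrophages, had 965, 1372 and 1005 normalized reads in WT, 2468, 1579 and 2481 in Samhd1 KO, 2041, 2449 and 1774 in the Cardif dKO and 2408, 4313 and 3597 in the Sting dKO. Each deficient library was above every WT library (log2 1.16, SE 0.19, adjusted p = 0.00557, 12 of 12 fits). The zinc finger repressors Gfi1b (log2 1.27, SE 0.21, adjusted p = 0.00657) and Glis2 (log2 1.26, SE 0.16, adjusted p = 0.00158), and Zfpm1, a cofactor of GATA factors (log2 1.10, SE 0.17, adjusted p = 0.00457), were higher in all 9 libraries and in all 12 fits, as was the circadian repressor Bhlhe40 (log2 0.65, SE 0.10, adjusted p = 0.00385). Nr4a1, an orphan nuclear receptor induced by many stimuli, was at 117 to 274 in WT and 310 to 876 in the deficient libraries (log2 1.30, SE 0.28, adjusted p = 0.0225, lost without WT replicate 1 at 0.91). Of 27 tested immediate early genes 5 were shared higher, these being Klf4, Nr4a1, Egr2 (1.20), Junb (0.50) and Jund (0.35), and 2 were shared lower, Rgs1 and Btg2. The shares over all tested genes were 2.49% higher and 2.28% lower. Fos was at -0.62 (adjusted p = 0.0604), Egr1 at 1.09 (adjusted p = 0.284) and Jun at 0.14 (adjusted p = 0.678). Egr2 was lost without WT replicate 1 (1.12), 2 (1.25) or 3 (1.24), Junb without WT replicate 1 (0.39) or 2 (0.51), and Jund without WT replicate 1 (0.35), WT replicate 2 (0.27) or Samhd1 KO replicate 3 (0.34). Without WT replicate 1 the number shared higher was 1, and without WT replicate 2 it was 2.

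Other rises included Rgs3, a regulator of G protein signalling (log2 1.15, SE 0.17, adjusted p = 0.0039), Ndrg1 (log2 1.17, SE 0.24, adjusted p = 0.0194), the lectin-like receptor Clec2g (log2 1.16, SE 0.22, adjusted p = 0.0113), the orphan receptor Gprc5a (log2 1.16, SE 0.26, adjusted p = 0.0291), the ribonuclease Rnase6 (log2 1.11, SE 0.20, adjusted p = 0.0103) and Tmem154 (log2 1.09, SE 0.26, adjusted p = 0.0332). Of these, Rgs3 was called in all 12 fits, Ndrg1, Clec2g and Rnase6 in 10, and Gprc5a and Tmem154 in 9. Ndrg1 was lost without WT replicate 2 (log2 0.90) or 3 (1.13), Clec2g without WT replicate 1 (1.165) or 3 (0.98), and Rnase6 without WT replicate 2 (1.09) or 3 (0.93). Gprc5a was lost without WT replicate 1 (1.18), 2 (1.28) or 3 (1.01), and Tmem154 without WT replicate 1 (1.14), WT replicate 3 (0.75) or Samhd1 Cardif dKO replicate 2 (1.08). Of 10 tested MHC class II presentation genes, Cd74, the invariant chain, and H2-Eb1, a class II beta chain, were shared higher. Cd74 had 4488, 4204 and 4979 normalized reads in WT, 11275, 15828 and 7376 in Samhd1 KO, 5004, 7831 and 5597 in the Cardif dKO and 13496, 7373 and 9174 in the Sting dKO. The Cardif dKO libraries lay closest to WT (log2 0.92, SE 0.22, adjusted p = 0.0355), and H2-Eb1 had the same order (log2 0.91, SE 0.20, adjusted p = 0.029, 1.21, 0.44 and 1.08). Both calls were lost without any one WT library, and that of Cd74 also without Samhd1 Cardif dKO replicate 2. On the NF-kB list Cd40, Bcl3 (0.97) and Tnfaip2 (0.57) were shared higher among 27 tested genes and Birc3 lower. Bcl3 was lost without WT replicate 1 (0.76), WT replicate 2 (0.93) or Samhd1 KO replicate 3 (0.92), and Tnfaip2 was called in 5 of 12 fits. Other list members were thioredoxin reductase Txnrd1 (0.40, 4 of 12 fits) among 17 NRF2 and metal response genes and Krt7 (-0.62), lower, among 2 mesothelial and fibroblast markers, lost without WT replicate 1 (-0.50), 2 (-0.68) or 3 (-0.68).

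Of 21 tested markers of monocytes, dendritic cells and the small macrophages of the cavity, Nr4a1 (given above) and Zbtb46 (0.83, 3 of 12 fits) were shared higher, and the lectin Cd209a (-0.88, 4 of 12 fits) was shared lower. The change was positive in all 3 genotypes for 9 of the 21 and negative in all 3 for 7. Members that did not pass included the chemokine receptors Cx3cr1 at 1.71 (adjusted p = 0.127) and Ccr2 at 1.35 (adjusted p = 0.0759), the latter with 202 to 213 normalized reads in WT and 239 to 958 in the deficient libraries, which do not overlap. Retnla was at 1.05 (adjusted p = 0.0592), the folate receptor gene Folr2 at 0.99 (adjusted p = 0.125), and the lectins Mgl2 at -1.03 (adjusted p = 0.0835) and Clec4g at -1.32 (adjusted p = 0.0679). The summed level of the list was 15596.8 to 20992.6 normalized reads in WT, 18427.3 to 24838.1 in the single knockout, 16244 to 24553.8 in the Cardif dKO and 20189.9 to 27347.9 in the Sting dKO, and its part in the rise of the class II genes was not tested. In sorted bulk cells, fewer cells of a type and less RNA per cell cannot be told apart.

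Whether the shared changes were equal in the genotypes was read from the deficient libraries themselves. Of all tested genes 402 (3.04%) differed among the 3 deficient genotypes (limma F test on both double knockouts against Samhd1 KO), and among the 631 shared genes 38 did, 25 of the higher and 13 of the lower. For most genes the test missed its threshold, which does not show that the levels were alike. The intervals bound the difference for a few genes: for 6 shared higher and 10 shared lower genes, the 95% intervals of both differences lay within 50% of the shared log2 change. Of these 16, 14 are described here, each called in all 12 fits without 1 library. The higher ones were Skint3, Sema4a, Fam65a (0.67), Fam69a (0.57) and Kremen1, a receptor of Wnt inhibitors (0.48). The lower ones were Zfp9, Slc10a6, Herpud1, Dnajb9, Syvn1, the inositol phosphatase gene Inpp1 (-0.91), Tmem39a (-0.82), Ubfd1 (-0.62) and Arfgap3, which acts on the Golgi GTPase ARF1 (-0.56). For Herpud1 the difference from Samhd1 KO was 0.02 (95% interval -0.28 to 0.32) in Samhd1 Cardif dKO and -0.07 (95% interval -0.37 to 0.23) in Samhd1 Sting dKO. For Skint3 it was 0.14 (95% interval -0.24 to 0.53) and -0.08 (95% interval -0.47 to 0.30).

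**Figure D4:**
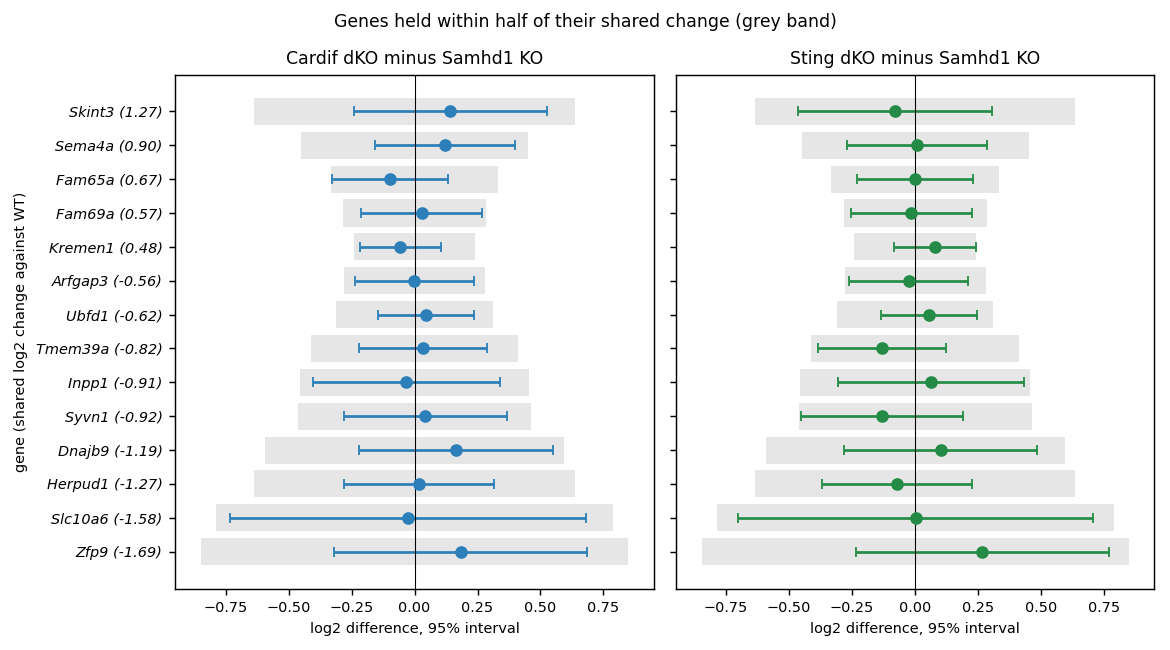
Log2 difference of Samhd1 Cardif dKO (left) and Samhd1 Sting dKO (right) from Samhd1 KO for 14 genes, with 95% intervals from limma. The grey band spans 50% of the shared change against WT, printed beside the gene name, in either direction. Every interval lies within its band by the rule that chose the genes.

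Other shared genes met the rule of a common sign with changes of unequal size. For Znfx1 and Axl the change in the Sting dKO was near 0 (log2 0.03 and 0.07), so they count as shared by sign alone there. Znfx1, an interferon-induced helicase-like gene, had 4160, 3840 and 4454 normalized reads in WT, 7197, 8154 and 7447 in Samhd1 KO, 5558, 5710 and 4954 in the Cardif dKO and 4429, 4573 and 3766 in the Sting dKO, so that it was highest in the single knockout, lower in the Cardif dKO and overlapping WT in the Sting dKO (F test, adjusted p = 0.00209). Axl, a receptor tyrosine kinase for dying cells, had 835, 466 and 604 normalized reads in WT, 3624, 2893 and 3093 in Samhd1 KO, 1066, 1262 and 1338 in the Cardif dKO and 410, 613 and 1074 in the Sting dKO. The order was the same, again with overlap of WT and the Sting dKO (F test, adjusted p = 0.00365). Dbp, an output gene of the circadian clock, had 40.7, 19.1 and 15.6 normalized reads in WT, 78.3, 24.8 and 66.0 in Samhd1 KO, 70.7, 37.1 and 36.4 in the Cardif dKO and 265, 309 and 299 in the Sting dKO, with its highest values in Samhd1 Sting dKO and overlap of the other groups (adjusted p = 0.00898). Nr1d1, the clock repressor REV-ERB alpha (0.74, 1.45 and 3.14, adjusted p = 0.048), shared this pattern, and Nfil3, a repressor that opposes Dbp, went the other way (-0.19, -0.53 and -0.99, adjusted p = 0.0122). Nfil3 was lost without WT replicate 2 (log2 -0.48), Znfx1 without WT replicate 2 (0.37), Axl without WT replicate 2 (0.94) or 3 (1.12), Dbp without WT replicate 2 (1.76) or 3 (1.62), and Nr1d1 without WT replicate 1 (1.61), 2 (1.85), 3 (1.87) or Samhd1 KO replicate 3 (1.70). Of 21 tested clock genes 5 were shared higher and 1 lower, and between 1 and 3 were shared higher without WT replicate 1, 2 or 3, Samhd1 KO replicate 3 or Samhd1 Cardif dKO replicate 3.

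On the type I interferon list, 2 of 53 tested genes were shared higher, Znfx1 and Phf11, the latter in 7 of 12 fits, and 0 were shared lower. Among all tested genes 2.49% were shared higher, so the list's count stands near the background. The list's median log2 change was 0.84 in the single knockout, 0.09 in the Cardif dKO and -0.41 in the Sting dKO, and 46 of the 53 differed among the deficient genotypes. Oas3, an activator of RNase L, had 895, 453 and 828 normalized reads in WT, 2598, 2689 and 2578 in Samhd1 KO, 833, 1340 and 997 in the Cardif dKO and 395, 453 and 309 in the Sting dKO. All 3 Samhd1 KO libraries were above WT and both double knockouts overlapped it. Its pooled change was log2 0.54 (adjusted p = 0.142). Of 16 interferon-inducible GTPases and 24 MHC class I genes, 0 were shared. Cell cycle genes had medians of 1.13, 1.42 and -0.92, and B cell markers -0.82, -0.37 and 1.30, in the same order, and 0 of 39 and 0 of 24 were shared. Deoxynucleotide metabolism, the pathway of SAMHD1 itself, had 1 shared gene among 27, Samhd1, with a median of 0.04.

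**Figure D5:**
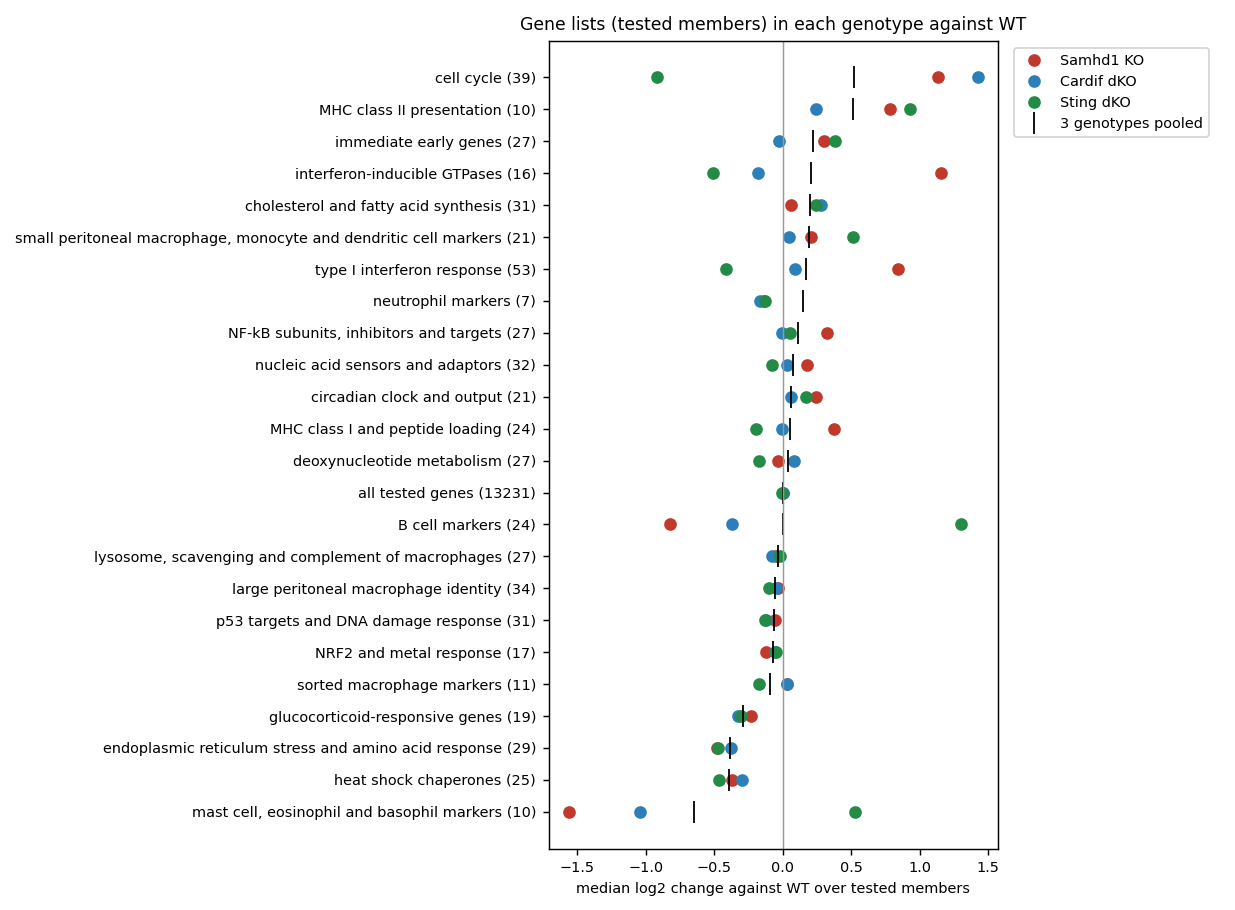
Median log2 change against WT (horizontal axis) over the tested members of each gene list (number in brackets), as points for the 3 deficient genotypes and a black tick for the pooled contrast. Lists with fewer than 5 tested members are left out. Among lists with all 3 points below 0, those of glucocorticoid, ER stress and heat shock genes lie lowest. The p53, NRF2, lysosome, large peritoneal macrophage and neutrophil lists have all 3 points below 0 too, nearer to it. The points spread to both sides of 0 for the interferon, cell cycle, B cell and mast cell lists.

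The genes that lie beside Samhd1 were read as well, since all deficient genotypes carry its altered locus. Of the 25 tested genes on each side of Samhd1 on chromosome 2, in the gene order of GENCODE, 0 of 50 were shared in either direction, with pooled log2 changes from -0.69 to 0.60 and a smallest adjusted p of 0.0921 (Rpn2). Over all tested genes 2.49% were shared higher and 2.28% shared lower, so a count of 0 of 50 stands near the background. It does not show that the altered locus left its neighbours unchanged.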

How the data were processed

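The authors deposited signal values per gene, which are reads divided by 1 size factor per library, on genes of Ensembl 61 (mm9), per the file headers. No source used here names the aligner. Among tools, bedtools (2.16.2) and DESeq (1.6.1) appear in the submitters' processing notes. At a tolerance of 1e-04, 100% of the values in each library were whole numbers of reads once divided by its smallest step, so reads were recovered for the count tests, and 13231 genes were tested. The table has no gene at 0 in all 6 double knockout libraries, so genes read only in other groups are not analysed here.

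Log2(normalized reads + 1) values, which understate changes of genes with few reads, were fitted with limma 3.58.1 (R 4.3.3, trended prior, 8 residual degrees of freedom) with a mean per genotype over all 12 libraries. The pooled contrast is the mean of the 3 deficient genotypes minus WT, and p-values were adjusted by Benjamini-Hochberg over all tested genes, with a threshold of 0.05. The median SE was 0.11. The fit was also run on simulated counts with known changes. The outcome is not reported here, and that run is no support for the calls. Alternatives were edgeR 4.0.16, DESeq2 1.42.0, limma-voom, other filters, pseudocounts, covariates, subsets and thresholds, and leaving out each library.

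Members and the 26 gene lists (537 tested genes, 33 genes on more than 1 list) were chosen with earlier results of these data known. Named are Samhd1, Mavs and Tmem173, the 20 largest shared rises and falls with a mean of at least 50 normalized reads and no overlap of the 9 and 3 libraries, up to 10 each way of those held within 50% of the change, and up to 4 shared members per list. Y-linked genes, Xist, antigen receptor segments and gene models without a symbol are not named, and some genes that the rule names are not reported here. Further list members, other genes at log2 values short of the threshold, and Derl3, Alg12, Ero1lb and Creld2 were named after their values were seen. Promoter windows were matched by symbol or synonym.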

Additional observations from a re-analysis of the deposited data

Results flagged for a closer look

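Among the 79 genes named by the rule, 9 had 1 of the 9 deficient libraries far from the others, where chance flags about 1 in 20. High single libraries were Sh2b2 at 203.9 normalized reads in Samhd1 Sting dKO replicate 3, Hspa1b at 96.7 in Samhd1 Sting dKO replicate 2, Hyou1 at 4848 in Samhd1 Cardif dKO replicate 2, Cd40 at 1556 in Samhd1 Sting dKO replicate 1, and Phf11 at 486.2 and Tnfaip2 at 5998 in Samhd1 KO replicate 2. Samhd1 KO replicate 1 was the high library for Cblb (2293), Dnaja1 (1432) and Mertk (6266), so for these 3 lower genes it lay nearest to WT. Without it the pooled log2 change was -1.13 for Cblb, -0.84 for Dnaja1 and -0.53 for Mertk.

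Shared genes whose level differed among the 3 deficient genotypes, by the limma F test with its adjusted p, were Znfx1 (0.00209), Axl (0.00365), Dbp (0.00898), Nfil3 (0.0122), Samhd1 (0.0197), Hspa8 (0.0374), Tmem173 (0.0437), Cdkn2a (0.047), Glis2 (0.0477) and Nr1d1 (0.048). Znfx1, Axl and Tmem173 were highest in Samhd1 KO, Dbp, Nr1d1 and Glis2 were highest in Samhd1 Sting dKO, and Nfil3 and Hspa8 were lowest there.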

How the results depend on the processing

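No result reversed. Leaving out 1 library at a time gave 100 to 332 genes higher and 107 to 333 lower in the pooled contrast (333 and 307 with all libraries), 99 to 330 shared higher and 107 to 330 shared lower, 24 to 85 called in each genotype (91), 15 to 46 shared genes that differed among genotypes (38) and 5 to 21 held within 50% of the change (16). DESeq2 gave 613 and 558 pooled, 600 and 546 shared, 232 called in each genotype and 179 differing. Treating the 9 libraries as 1 group gave 188 and 196, pooled and shared alike, and 6 differing. With sex as a covariate, or with female mice alone, 34 were called in each genotype and 9 held. With labelled age as a covariate 221 were higher in the pooled contrast and 217 shared higher. In libraries of labelled age 16 alone (3 WT, 3 deficient) the counts were 94 and 114 pooled, 91 and 114 shared, 8 in each genotype, 0 differing and 4 held. All 329 and 302 shared genes kept their sign there. They were chosen by sign in data that include these same libraries, so this is no separate support, and a part of age was not tested by it. A B cell score as a covariate gave 8 in each genotype, 0 differing and 0 held, and a cell cycle score 37, 16 and 7. A threshold of 0.01 gave 76 and 102 pooled, 75 and 102 shared, 16 in each genotype and 5 differing, and 0.1 gave 641 and 563, 630 and 552, 178 and 121. The causes were not tested. The replicate block gave 269 shared higher, 289 lower and 25 differing, and 6 glucocorticoid genes shared lower (4). The labels do not say that equal numbers pair libraries. Over all tested genes, 7 of 18 same-numbered pairs had deviations with r over 0.1 (from -0.427 to 0.369), and 3 of 12 libraries were most like one of their own number. Such correlations cannot show whether smaller sets of genes follow the numbers. Other filters, pseudocounts, TMM factors, limma-voom and edgeR moved neither count of shared genes by over 1.5 times, though limma-voom left 3 of 5 clock genes and 1 of 2 interferon genes shared higher. Heat shock genes shared lower were 17 by DESeq2 and 7 at the threshold of 0.01 (11), ER genes 10 at labelled age 16 (16), and glucocorticoid genes 7 by DESeq2 and 1 with 1 group or at 0.01 (4). Immediate early genes shared higher were 2 with 1 group and 1 at age 16 or at 0.01 (5). Of all tested genes, 31 higher and 56 lower genes were shared under every alternative fit. Held genes were not computed for edgeR and DESeq2.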

Other observations

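The other promoter motifs searched are given for all shared genes. Windows were matched for 78.7% of shared higher, 75.2% of shared lower and 73.7% of all tested genes, below the 80% set for such a check, which is therefore void, and the shares describe the matched genes alone. The core of the interferon-stimulated response element (GAAANNGAA) was in 7.34% of higher, 8.37% of lower and 7.37% of all windows. The heat shock core (GAANNTTC) was in 9.27%, 8.81% and 5.85%, the E-box (CACGTG) in 9.27%, 11.5% and 10.3%, the cAMP response element (TGACGTCA) in 1.54%, 2.2% and 3.3%, and the gamma-activated site (TTCNNNGAA) in 6.56%, 7.49% and 6.94%.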
